A study of Mus musculus with 22 samples.

Results

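Serine synthesis and the first steps of one-carbon metabolism were followed through 6 genes, Phgdh, Psat1, Psph, Shmt1, Shmt2 and Mthfd2, in tumours of the colon from FVB/N mice, all male and of 1 inbred strain. They are 6 of 19505 named genes on the array, and each has 1 probe set, a group of short probes that stands for a gene. The genes were chosen by their place in the pathway, with the highest-mean probe set taken for each, and with earlier results of the same tumours known. Which measured values prompted the choice is not recorded, so regimen differences of the 6 genes are descriptions here and no p was adjusted over them alone.

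The 22 tumours were all induced with azoxymethane, a carcinogen that acts on the rodent colon. Fat made up 10% of kcal in the food of the 6 control mice, which got no sulindac. It made up 60% for the 5 obese mice, also without the drug, while the 6 obese sulindac mice had that same high-fat food with sulindac, a cyclooxygenase inhibitor, and the 5 formerly obese mice were switched from high-fat to low-fat feeding without sulindac. Each title names another mouse, except for Mouse_X of the sulindac group, whose number is not given. Ages, feeding times and the sulindac dose are not given in the labels.

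Serine is made from a glycolytic intermediate in 3 steps, by the enzymes of Phgdh, Psat1 and Psph in that order. Serine hydroxymethyltransferase then passes a carbon from serine to folate and leaves glycine, in the cytosol by the product of Shmt1 and in mitochondria by that of Shmt2. Mthfd2 encodes a mitochondrial enzyme that oxidises the loaded folate, and the carbon goes on to purines, thymidylate and methylation. In many tumours and dividing cells these enzymes are abundant, and Phgdh, Psat1, Shmt2 and Mthfd2 are textbook targets of ATF4, the transcription factor of the amino acid response.

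Values are log2 levels as deposited, so a difference of 1 is a doubling. Array medians lay between 6.67 and 6.83, and no level can be compared between probe sets. The epithelial genes Epcam and Cdh1 were at 16.67 to 17.43 and 17.29 to 17.92 in the 22 tumours, and the adipocyte hormone genes Adipoq and Lep at 3.86 to 5.27 and 4.03 to 5.36. These ranges are given as values, and all levels of all probe sets lay between 3.34 and 19.49. Tumour RNA mixes cell types, and in such samples fewer cells of a type and less RNA per cell cannot be told apart. Where nothing but the mouse number separates samples, p-values of regimen differences set the difference against the spread between these tumours.

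Phgdh, Psat1 and Shmt2 varied together between tumours, as described further on, and their start regions are shown because genes that share a pattern may be read side by side. The bases are those just before the annotated start, from RefSeq on GRCm38.p6, minus strand, 5′ to 3′. Phgdh lies at chr3:98339970-98340089, Psat1 at chr19:15925060-15925179 and Shmt2 at chr10:127522445-127522564. Capitals mark the CCAAT box on either strand.
Phgdh: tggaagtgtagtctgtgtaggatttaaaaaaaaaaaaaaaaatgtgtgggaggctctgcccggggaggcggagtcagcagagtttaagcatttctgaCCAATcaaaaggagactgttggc
Psat1: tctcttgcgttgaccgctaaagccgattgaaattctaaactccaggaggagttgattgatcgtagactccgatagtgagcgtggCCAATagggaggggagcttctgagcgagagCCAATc
Shmt2: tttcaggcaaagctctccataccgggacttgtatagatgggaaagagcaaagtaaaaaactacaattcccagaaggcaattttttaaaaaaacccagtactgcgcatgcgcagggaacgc

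The printed stretch of Phgdh holds 1 CCAAT box, starting at -23 from the start, and that of Psat1 holds 2, at -36 and -6. The Shmt2 stretch holds 0. In windows of 300 bases, from 250 before to 50 after a start, 5 of the 6 genes hold CCAAT in at least 1 annotated window, all but Shmt2, so that Psph, Shmt1 and Mthfd2 do as well. It occurs on either strand in 37.4% of all 32851 such windows, a share of windows and not of genes. Psat1 has 2 annotated windows, of which the second holds 0 CCAAT boxes, and its printed stretch comes from the first. The core of the amino acid response element that ATF4 binds, TGATGNAA on either strand, was in 0 of the windows of the 6 genes, against 3.97% of all windows. These matches and absences describe the letters in the windows only. The RefSeq windows of Psph and Mthfd2 start inside the annotated gene, so no sequence is shown for them.

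Psph was the member that differed most between regimens. It encodes phosphoserine phosphatase, the last enzyme of serine synthesis. In obese tumours Psph was at 7.50 in Mouse_96, 7.03 in Mouse_101, 7.29 in Mouse_107, 7.24 in Mouse_109 and 7.39 in Mouse_113. With sulindac its lowest level was 7.79, the median 8.01 and the highest 8.51. All 6 sulindac tumours lay above all 5 obese tumours.

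The mean of Psph was 8.05 ± 0.27 with sulindac and 7.29 ± 0.18 in untreated obese tumours (SD, n = 6 and 5). Sulindac tumours were thus 0.76 ± 0.16 higher on the log2 scale (SE, 95% interval 0.42 to 1.09), or 1.69-fold. In limma's test over all 22203 probe sets this difference did not pass (adjusted p = 0.533), although its p ranked 2 among them. Of the 6 genes, 1 was without overlap in this direction, against 0.347% of all probe sets. Limma called 0 of the 6 genes, and 0% of all probe sets, at an adjusted p under 0.05. At an unadjusted p under 0.05 stood 1 of the 6 genes, Psph, and 6.55% of all probe sets.

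Formerly obese tumours lay between these groups by mean level of Psph. They were at 7.80 in Mouse_134, 7.83 in Mouse_140, 7.67 in Mouse_146, 7.61 in Mouse_150 and 7.33 in Mouse_152. In 4 of 5 the level was above every obese tumour, with Mouse_152 inside the obese range. Mouse_134 and Mouse_140 lay above the lowest sulindac tumour, at 7.79. The formerly obese mean of 7.65 ± 0.20 was 0.36 ± 0.17 above the obese mean (95% interval 0.01 to 0.71, adjusted p = 0.873 in limma). The limma fit gave 0 calls in this comparison (0%), and 1 of 6 genes against 5.69% of probe sets had an unadjusted p under 0.05.

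Control tumours ran from 7.04 in Mouse_20 through a median of 7.69 to 7.90 in Mouse_27. The mean was 7.62 ± 0.32, so obese tumours differed by -0.33 ± 0.16 (95% interval -0.66 to 0.01, adjusted p = 0.9998 in limma). These groups overlapped, with 1 of 5 obese tumours below all controls. Limma called 0% of probe sets here, and 0 of 6 genes had an unadjusted p under 0.05, against 4.03% of probe sets.

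By mean level of Psph the order of regimens was thus obese, control, formerly obese, obese sulindac. Control and formerly obese, the middle neighbours, were 0.03 apart (95% interval -0.30 to 0.37) and cannot be told apart beyond their spread. Sulindac tumours were 0.43 ± 0.15 above controls and 0.40 ± 0.16 above formerly obese tumours, with 4 of 6 above every tumour of either group (adjusted p = 0.671 and 0.693 in limma). In both of these comparisons 1 of 6 genes, Psph, had an unadjusted p under 0.05, against 6.63% and 6.62% of probe sets. Between formerly obese and control tumours it was 0 of 6 against 5.54%. The main differences share the same 5 obese tumours, so they are not separate pieces of evidence.

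**Figure D1:**
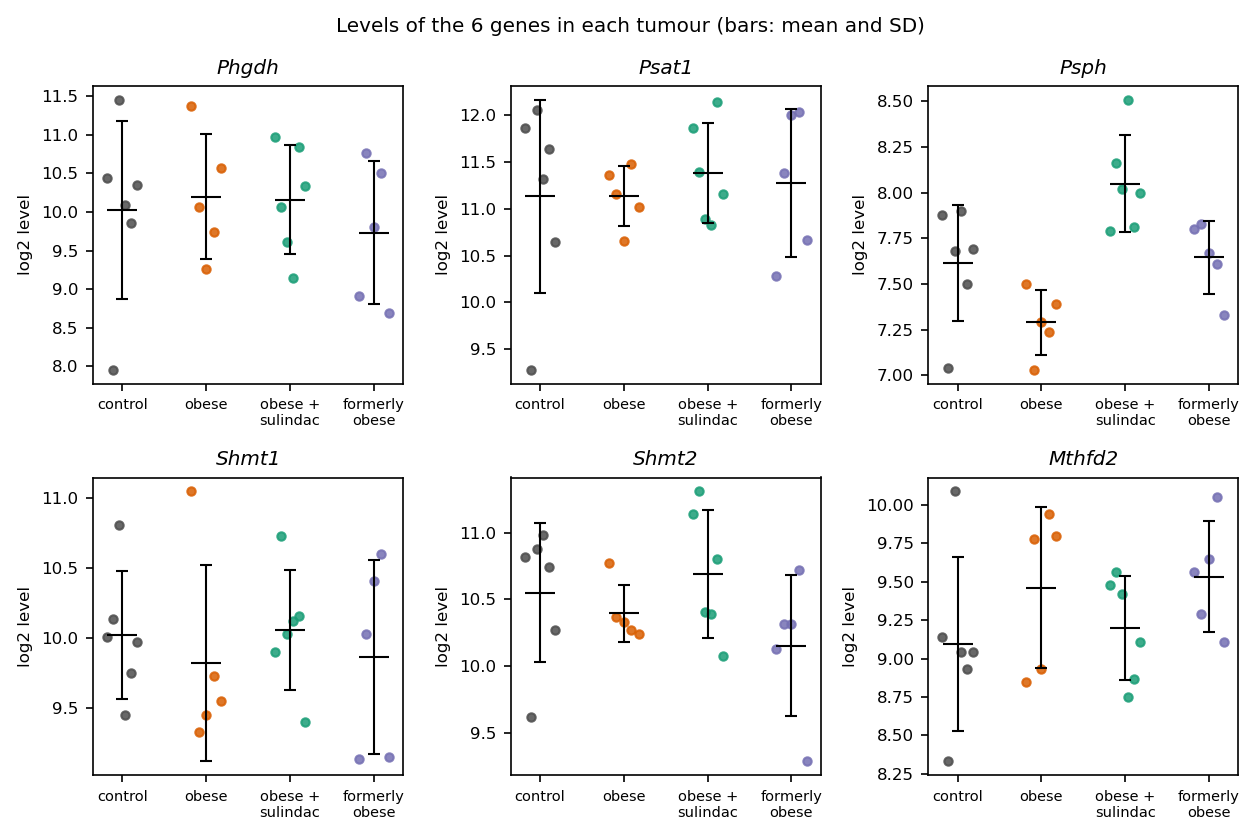
Log2 level (vertical axis) of each of the 6 genes in each tumour, grouped by regimen; every point is a tumour, the line is the mean and the bar 1 SD. For Psph all 6 sulindac points sit at 7.79 or above and all 5 obese points at 7.50 or below, while the regimens overlap for the other genes.

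Genes of several marker lists also leaned higher or lower with sulindac than in obese tumours, which was not tested. All 9 smooth muscle genes had higher means with sulindac than without, with a median difference of 0.51 against 0.01 over all probe sets. Their mean level ran from 9.19 to 10.34 in sulindac and from 8.88 to 9.50 in obese tumours. Of the 18 proliferation genes 17 had higher means, with a median of 0.30, and ranges of 11.02 to 11.59 and 10.51 to 11.59. Of the markers of other gut cells, 10 of 12 for absorptive colonocytes and 6 of 8 for goblet cells had higher means, with medians of 0.44 and 0.91. Of the fibroblast markers 7 of 10 were higher, at a median of 0.12. Lower means were more frequent among stem cell and WNT target, neutrophil and endothelial markers, each with 5 of 8 lower and medians of -0.28, -0.25 and -0.11. Over all probe sets 51.7% had higher means and 48.3% did not, so 5 of 8 is not far from that share. Of the colon epithelium markers 8 of 14 were higher, at a median of 0.02. Limma called 0 genes of these lists. Over the 22 tumours Psph had a Pearson r of 0.32 with the smooth muscle mean and 0.25 with the proliferation mean (Spearman rho 0.39 and 0.21, permutation p = 0.142 and 0.256, adjusted over 54 pairs 0.365 and 0.494). The part of these cells in the Psph difference was not tested.

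Phgdh, the gene of phosphoglycerate dehydrogenase, which opens the pathway, spread far more within regimens than between them. Controls ran from 7.95 in Mouse_20 to 11.46 in Mouse_26 with a median of 10.22. Obese tumours were at 11.37 in Mouse_96, 10.06 in Mouse_101, 9.26 in Mouse_107, 9.74 in Mouse_109 and 10.57 in Mouse_113. Both ends of the range, 3.51 log2 units apart, lay among the controls. With sulindac Phgdh ran from 9.14 to 10.97 with a median of 10.21, and formerly obese tumours were at 8.91, 10.77, 9.80, 10.50 and 8.69 in Mouse_134, Mouse_140, Mouse_146, Mouse_150 and Mouse_152. All 4 regimens overlapped. The means were 10.03 ± 1.16 in control, 10.20 ± 0.81 in obese, 10.16 ± 0.71 in sulindac and 9.73 ± 0.93 in formerly obese tumours (SD, n = 6, 5, 6 and 5).

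Psat1 encodes phosphoserine aminotransferase, the middle enzyme. Its control tumours ran from 9.28 in Mouse_20 to 12.05 in Mouse_26 with a median of 11.48, a wider range than that of any other regimen. Obese tumours kept to 10.65 to 11.48, sulindac tumours to 10.83 to 12.14 and formerly obese tumours to 10.28 to 12.03. The means were 11.13 ± 1.03, 11.13 ± 0.32, 11.38 ± 0.53 and 11.27 ± 0.79 in control, obese, sulindac and formerly obese tumours. Obese and control tumours thus differed by 0.00 ± 0.41 (95% interval -0.86 to 0.86).

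The cytosolic and the mitochondrial hydroxymethyltransferase genes also overlapped between all regimens. Shmt1 means were 10.02 ± 0.46 in control, 9.82 ± 0.70 in obese, 10.06 ± 0.43 in sulindac and 9.87 ± 0.69 in formerly obese tumours. Shmt2 means were 10.55 ± 0.52, 10.40 ± 0.22, 10.69 ± 0.48 and 10.16 ± 0.53 in the same order. The widest gap for Shmt2 was between sulindac and formerly obese tumours, 0.53 ± 0.27 (95% interval -0.02 to 1.09, adjusted p = 0.763 in limma). Obese Mouse_96 stood apart in both genes, with Shmt1 at 11.05 where the other obese tumours were at 9.73 or less, and Shmt2 at 10.77 where they were at 10.37 or less.

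Mthfd2 means were 9.10 ± 0.57 in control, 9.46 ± 0.52 in obese, 9.20 ± 0.34 in sulindac and 9.53 ± 0.36 in formerly obese tumours. Among obese tumours Mthfd2 was at 9.78, 9.94 and 9.80 in Mouse_101, Mouse_109 and Mouse_113 but at 8.85 and 8.93 in Mouse_96 and Mouse_107. This order is unlike that of Shmt1 and Shmt2, where Mouse_96 was the highest obese tumour. Against sulindac the obese mean of Mthfd2 was higher, and the difference of -0.26 ± 0.27 (sulindac minus obese, 95% interval -0.82 to 0.29) ran opposite to that of Psph.

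The regimens accounted for 58.4% of the variance of Psph over the 22 tumours, and for 2.49% (Psat1) to 18.2% (Shmt2) in the other 5 genes. Groups this small take up some variance by chance alone, and that share was not computed. Within regimens the SD of Psph was 0.25 log2 units, against 0.46 to 0.92 for the others. In limma's F test over the 4 groups 0 of the 6 genes were called, as were 0% of all probe sets. Its unadjusted p was under 0.05 for Psph alone (adjusted p = 0.755), 1 of 6 genes against 6.0% of probe sets.

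**Figure D2:**
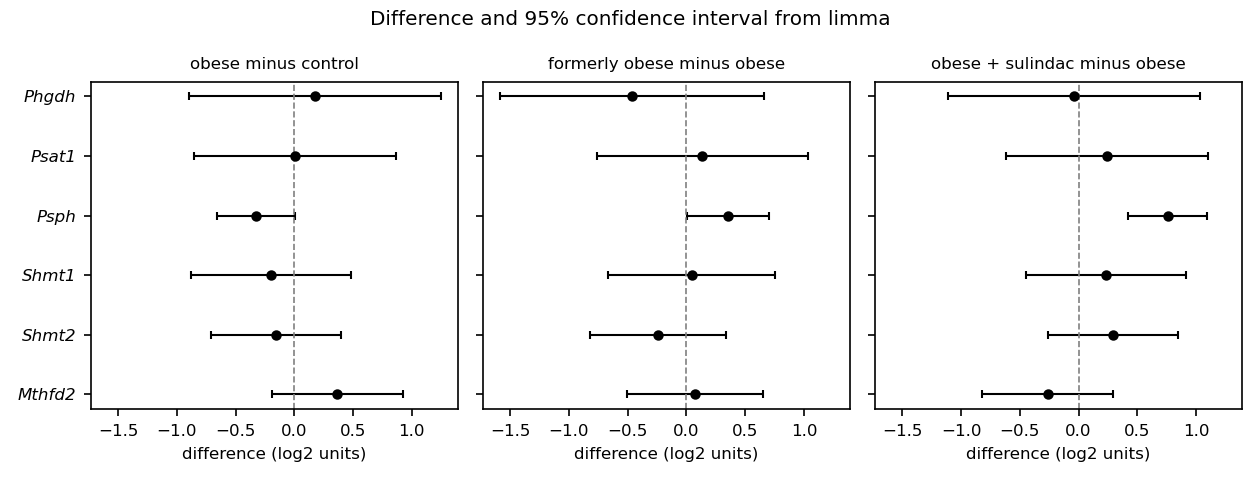
Difference in log2 level (horizontal axis) for each gene in the 3 main comparisons, with its 95% confidence interval from limma; the dashed line marks 0. Intervals of Psph leave out 0 for sulindac and for the diet switch, those of the other 5 genes include it in every panel.

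Over the 22 tumours, Phgdh, Psat1 and Shmt2 varied together. Of the 15 pairs of members, 3 passed over the 22 tumours after Benjamini-Hochberg adjustment over the 15, namely the pairs among these genes. Phgdh and Psat1 had r = 0.77 and rho = 0.65 (permutation p = 3e-05 and 0.00129, adjusted 0.00045 and 0.0159). Phgdh and Shmt2 had r = 0.67 and rho = 0.54 (permutation p = 0.00066 and 0.00951, adjusted 0.00355 and 0.0475). Psat1 and Shmt2 had r = 0.68 and rho = 0.64 (permutation p = 0.00071 and 0.00212, adjusted 0.00355 and 0.0159).

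These values lean in part on the lowest tumours. Control Mouse_20 was the lowest of all 22 tumours for Phgdh, Psat1 and Mthfd2. Without the 2 tumours farthest from the median of the first gene, r was 0.62 for Phgdh with Psat1, 0.45 for Phgdh with Shmt2 and 0.59 for Psat1 with Shmt2. With the regimen means removed, r was 0.80, 0.68 and 0.74 (permutation within regimens, adjusted p = 0.00285, 0.00875 and 0.00875). Over all tumours but Mouse_20 r was 0.66, 0.59 and 0.60. Within the 6 controls alone r was 0.88, 0.81 and 0.95, with Mouse_20 included, the lowest control for each of these genes. How far these control values rest on that mouse was not tested. Within the 6 sulindac tumours r was 0.91, 0.43 and 0.59. No value was taken within the other regimens, which hold 5 tumours each.

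Psph, the gene of an enzyme in the same short pathway, had lower r with them, and whether its correlations differ from theirs was not tested. Its r was 0.20 with Phgdh (rho 0.17, permutation p = 0.368, adjusted 0.425) and 0.26 with Psat1 (rho 0.13, permutation p = 0.244, adjusted 0.362). Without Mouse_20 these were -0.01 and 0.02. Within the 6 controls alone, Mouse_20 included, r was 0.79 and 0.78, and within the 6 sulindac tumours it was -0.90 and -0.76. The signs differed, but Mouse_20 was the lowest control for each of these genes. It was at 7.04 for Psph, 7.95 for Phgdh and 9.28 for Psat1, where the other controls were at 7.50, 9.86 and 10.64 or more. No r within controls was taken without Mouse_20, and the difference between controls and sulindac tumours was not tested. No value was taken within the obese or the formerly obese tumours. With Shmt2 Psph had r = 0.43 (rho 0.41, permutation p = 0.0458, adjusted 0.0982), and with Mthfd2 r = -0.07 (rho -0.12, permutation p = 0.741, adjusted 0.741). Mthfd2 was closest to Psat1, at r = 0.49 (rho 0.39, permutation p = 0.0193, adjusted 0.0579). Shmt1 and Shmt2, which carry out the same reaction in different compartments, had r = 0.51 (rho 0.48, permutation p = 0.016, adjusted 0.0579). Without Mouse_20 the count of pairs that passed was 6, as Shmt1 then passed with Phgdh, Psat1 and Shmt2 at r = 0.61, 0.58 and 0.59. Without control Mouse_30 it was 5.

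**Figure D3:**
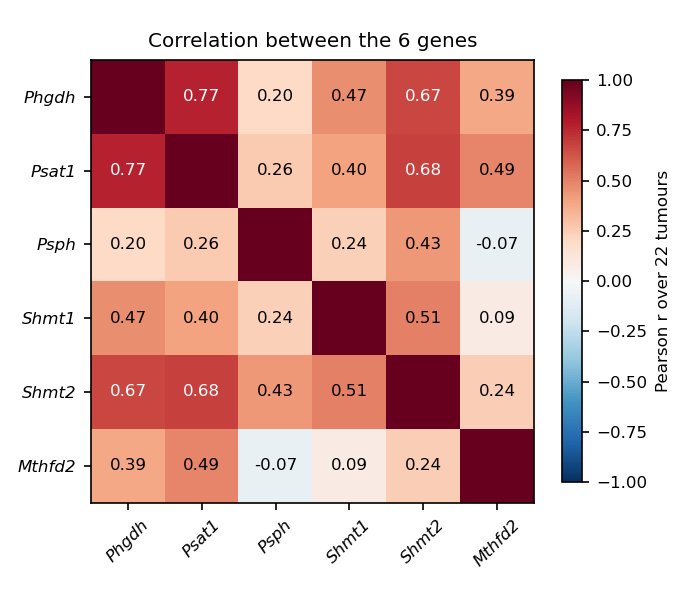
Pearson r over 22 tumours for each pair of the 6 genes; red is positive, blue negative. The block of Phgdh, Psat1 and Shmt2 holds r of 0.67 to 0.77, and the row of Psph runs from -0.07 to 0.43.

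Phgdh was lower where the mean of colon epithelium markers was higher. Its r with the mean of 14 epithelial markers was -0.76 (rho -0.80, permutation p = 7e-05 and 3e-05, adjusted over 54 pairs 0.00378 and 0.00162), and -0.75 without obese Mouse_96 and Mouse_113. That mean ranged from 13.43 to 14.75 in obese, 13.76 to 14.99 in control, 13.88 to 14.85 in sulindac and 14.29 to 15.14 in formerly obese tumours. It is unscaled, so genes with wide ranges weigh most in it. Among its genes Cdx2 ran from 5.92 to 13.64, Epcam from 16.67 to 17.43 and Cdh1 from 17.29 to 17.92. With the 12 markers of absorptive colonocytes, the mature cells of the surface, Phgdh had r = -0.59 (rho -0.65, permutation p = 0.00408, adjusted 0.0315), which was -0.50 without Mouse_20 and formerly obese Mouse_134. This call was lost without control Mouse_26, obese Mouse_96, sulindac Mouse_114 or formerly obese Mouse_152 (r = -0.56, -0.55, -0.58 and -0.61, adjusted permutation p = 0.0796, 0.0933, 0.0501 and 0.0556). With the 8 stem cell and WNT target genes it had r = 0.68 (rho 0.68, permutation p = 0.00051, adjusted 0.00918), and 0.56 without control Mouse_26 and formerly obese Mouse_152. With fibroblast and macrophage markers Phgdh had r = 0.32 and -0.26 (rho 0.38 and -0.32), which did not pass (permutation p = 0.14 and 0.248, adjusted 0.365 and 0.494).

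Psat1 and Shmt2 went with proliferation. Against the mean of 18 proliferation genes, such as Mki67, Psat1 had r = 0.67 (rho 0.65, permutation p = 0.0005, adjusted 0.00918) and Shmt2 r = 0.61 (rho 0.61, permutation p = 0.00206, adjusted 0.0185). Without Mouse_20 and formerly obese Mouse_150 these were 0.55 and 0.56. The Shmt2 call was lost without Mouse_20 alone (r = 0.54, adjusted permutation p = 0.0747). For Phgdh the same r was 0.39 (rho 0.29, permutation p = 0.0695, adjusted 0.289), and whether the correlations of the genes differ from each other was not tested. Psat1 also had r = -0.46 with the epithelial and -0.49 with the absorptive mean (permutation p = 0.0311 and 0.0298, both adjusted 0.168). Without Mouse_20 and formerly obese Mouse_134 the absorptive value was -0.16. With regimen means removed it was -0.60 and passed (permutation within regimens, adjusted p = 0.0366).

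The mean of 31 genes of the amino acid response, which leaves out the 6 members, had r = 0.65 with Phgdh (rho 0.59, permutation p = 0.00135, adjusted 0.0146) and r = 0.67 with Shmt2 (rho 0.43, permutation p = 0.00093, adjusted 0.0126). The Shmt2 value was 0.40 without sulindac Mouse_114 and formerly obese Mouse_152, and its rho did not pass (adjusted p = 0.287). Without Mouse_152 alone the call was lost (r = 0.49, adjusted permutation p = 0.167). Psph had r = -0.02 with this mean (rho -0.15, permutation p = 0.946, adjusted 0.964). In all, 7 of the 54 pairs of a member with a marker mean passed, and none of them involved Psph, Shmt1 or Mthfd2. With regimen means removed 8 passed, as Psat1 with absorptive markers then passed too.

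**Figure D4:**
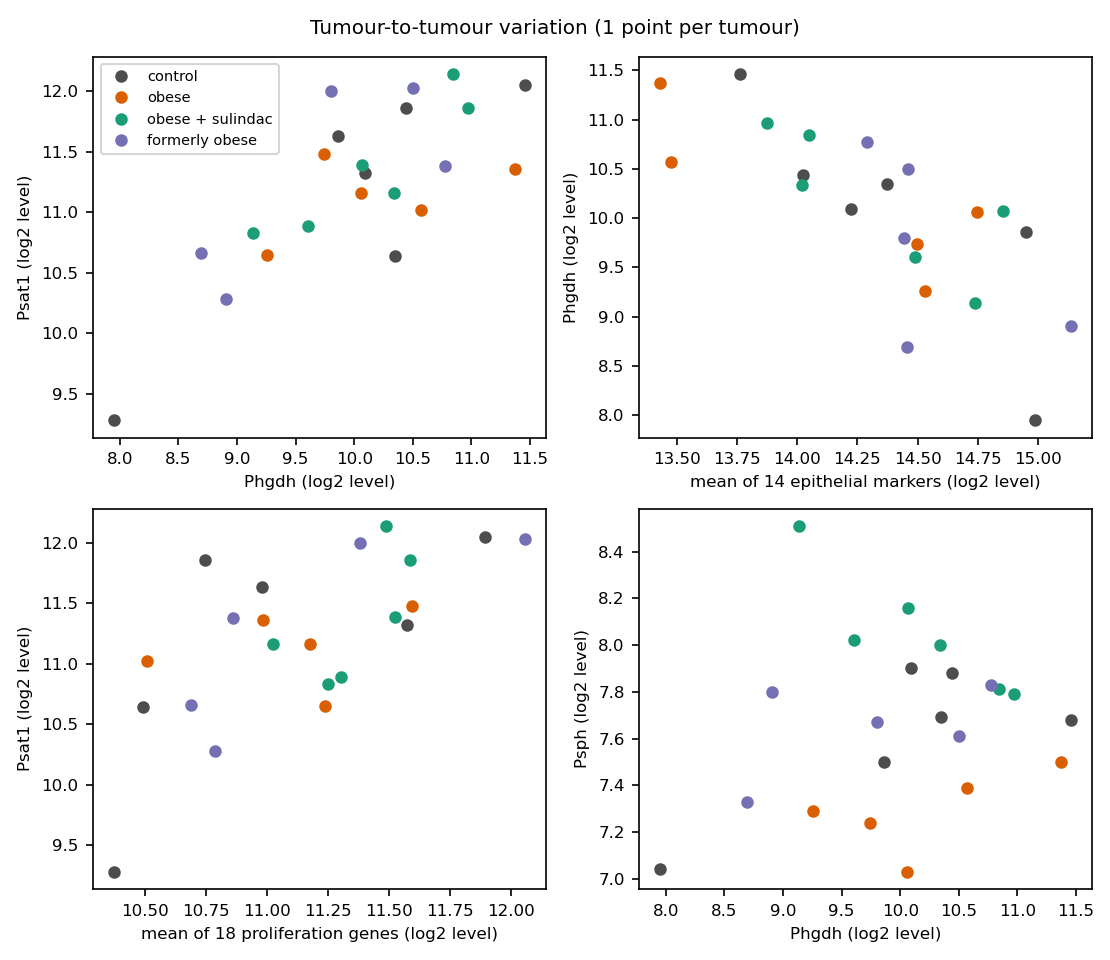
Each point is a tumour, coloured by regimen, and all axes are log2 levels. Psat1 rises with Phgdh (r = 0.77) and with the proliferation mean (r = 0.67), Phgdh falls as the epithelial mean rises (r = -0.76), and Psph against Phgdh separates sulindac from obese tumours along the Psph axis only.

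The named genes whose pattern over the 22 tumours was most like that of a member differed from member to member, and are given as a description. For Phgdh they were Gas1, a growth arrest gene (r = 0.88), Large2, a glycosyltransferase gene (0.87), and the homeobox gene Irx4 (0.86), which itself ran from 6.25 to 13.62. For Psat1 they were Prmt1, which encodes an arginine methyltransferase that uses S-adenosylmethionine (0.85), Nop14, a ribosome assembly gene (0.81), and Bub3, a mitotic checkpoint gene (0.80). For Shmt2 they were Dhodh, an enzyme gene of pyrimidine synthesis (0.84), Fen1, a flap endonuclease gene of DNA replication (0.83), and Ino80e (0.83).

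Psph was closest to the zinc finger gene Zkscan17 (0.74), the dynein gene Dnah10 (0.72), which lay at 4.13 to 5.55, and Galt, an enzyme gene of galactose use (0.69). With regimen means removed these were 0.78, 0.66 and 0.48. Without obese Mouse_101 and sulindac Mouse_129 they were 0.78, 0.56 and 0.57. Shmt1 was closest to Six5 (0.82), Prpf19, a splicing factor gene (0.79), and Ddias (0.77). Mthfd2 was closest to Eppin (0.83), which lay at 3.75 to 4.65, the fatty acid desaturase gene Scd1 (0.82) and the checkpoint kinase gene Chek1 (0.75). Among 19504 other genes ranked by likeness to Psat1, Phgdh came at rank 9 and Shmt2 at 69, whereas Psph came at 3624. Ranked by likeness to Phgdh, Psat1 came at 54, Shmt2 at 260 and Psph at 5687. In the ranking for Psph, the closest other member was Shmt2 at rank 489.

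Genes around the members were read from lists set by pathway. Of the 16 measured genes of the folate cycle, 11 had higher and 5 lower means in sulindac than in obese tumours, with a median difference of 0.09, against 0.01 and 51.7% higher over all probe sets. Mthfd1l, which releases formate from mitochondria, differed by 0.46 ± 0.28, and Tyms, thymidylate synthase, by 0.27 ± 0.25. The folate receptor gene Folr1 differed by 0.49 ± 0.18 at levels of 5.16 and 4.67. None of the 16 was called by limma in this comparison, in which the smallest adjusted p of all probe sets was 0.533.

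In the 19 genes of purine and thymidylate synthesis, 11 were higher and 8 lower with sulindac, at a median of 0.04. Tk1, thymidine kinase, was at 6.78 ± 0.25 against 6.08 ± 0.29 (SD, n = 6 and 5), with 6 of 6 above every obese tumour, and Prps1, which makes the ribose donor of purines, differed by -0.67 ± 0.30. In the methionine cycle and transsulfuration list 5 of 14 were higher, at a median of -0.12. There Ahcy, which clears the by-product of methylation, was at 14.10 ± 0.27 against 13.46 ± 0.33, again without overlap. Over all probe sets 0.347% were without overlap in this direction, and Tk1 and Ahcy were named for their small unadjusted p. Gatm, which uses glycine to make creatine's precursor, differed by 0.78 ± 0.30 in a glycine list with 5 of 9 higher. Of the serine and glycine transport list 7 of 15 were higher, and Slc1a5, a neutral amino acid carrier gene, differed by 0.54 ± 0.30. All of these had adjusted p of 0.581 or more in limma, and none was called.

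In the amino acid response list 19 of 31 genes had lower and 12 higher means with sulindac, at a median of -0.07 against 0.01 over all probe sets, of which 51.7% were higher. Of the 31, 6 had an unadjusted p under 0.05, 5 of them lower, against 6.55% of all probe sets, and the direction of the list was not tested. Nupr1, a stress response gene, was at 13.11 ± 0.99 against 14.62 ± 0.48, a difference of -1.51 ± 0.43. Tars, a threonyl-tRNA synthetase gene, differed by -0.43 ± 0.13 and the pseudokinase gene Trib3 by -0.52 ± 0.19. Atf4 itself differed by -0.33 ± 0.17 and its target Asns, asparagine synthetase, by -0.13 ± 0.20. Limma called 0 of the 31 (adjusted p of 0.581 or more).

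For the diet switch, 22 of these 31 genes had lower means in formerly obese than in obese tumours, at a median of -0.24 against 0.00 over all probe sets, of which 49.3% were not higher. Of the 31, 3 had an unadjusted p under 0.05, against 5.69% of all probe sets. Tars differed by -0.34 ± 0.14 and Chac1, a glutathione-degrading enzyme gene, by -0.67 ± 0.32. In the purine list 10 of 19 were lower, close to the share over all probe sets, and 3 had an unadjusted p under 0.05, against the same 5.69%. Prps2, another gene of ribose donor synthesis, had the smallest unadjusted p of this list, at -0.56 ± 0.21, followed by Paics at -0.41 ± 0.17. The reduced folate carrier gene Slc19a1 differed by -0.55 ± 0.22 and the glycine transporter gene Slc6a9 by -0.68 ± 0.31. None of these was called by limma (adjusted p of 0.866 or more).

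Between obese and control tumours 3 genes of the 7 pathway lists, 2.65% of those measured, had an unadjusted p under 0.05, a smaller share than the 4.03% of all probe sets, so they are given as values only. Trib3 differed by 0.63 ± 0.19, Nupr1 by 1.15 ± 0.43 and the cytosolic folate dehydrogenase gene Aldh1l1 by 0.91 ± 0.40. Of the 31 amino acid response genes 20 had higher means in obese tumours, at a median of 0.08, against 49.1% of all probe sets with higher means. Limma called 0 of them (adjusted p = 0.9998 for each gene named).

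**Figure D5:**
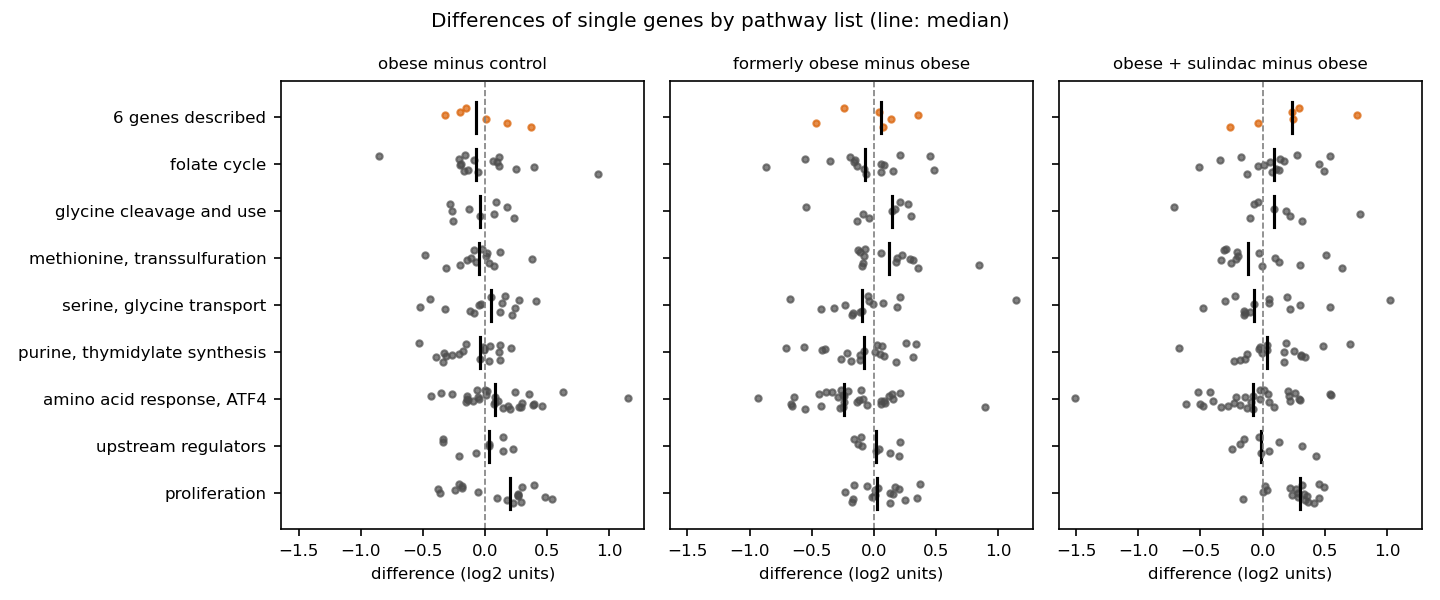
Difference in log2 level (horizontal axis) of every measured gene of each pathway list in the 3 main comparisons; points are genes, the short line is the list's median and the dashed line marks 0. Proliferation genes gather right of 0 with sulindac (median 0.30), and amino acid response genes left of 0 after the diet switch (median -0.24).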

How the data were processed

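RNA of 22 colon tumours was measured on Clariom S arrays, and groups were taken from the sample labels. The deposited table holds log2 levels, 1 column per tumour and 22203 probe sets; that the base is 2 was read from the range of values, 3.34 to 19.49. Transcriptome Analysis Console 4.0 is named in the submitters' processing notes, while how probes were summarised and normalised is not given in the sources used here. The array annotation gave 1 symbol for 19572 probe sets and none for 2631.

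Levels were used as deposited, with no filter, so all 6 genes were tested. A limma model (3.58.1, R 4.3.3) with 1 mean per regimen was fitted over all probe sets and arrays, with empirical Bayes moderation and Benjamini-Hochberg adjustment over all probe sets, threshold 0.05. Scripts were tested on simulated data. Correlations used Python 3.11.15 and SciPy 1.17.1 with 100000 permutations, two-sided, in families of 15 and 54. Marker means average the measured genes of a list.

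Members and lists were chosen with earlier results of these data known. Besides the members, genes were named by the smallest unadjusted p per pathway list (up to 2 a comparison), from a short list of pathway genes, or as the 3 genes closest to a member. Pole4 and Defb10 were named after their values were seen. The number of arrays limits precision. Alternatives were quantile normalization, median centring, limma with trend and robust settings, leaving out the dimmest probe sets, fits on 2 groups, and leaving out each mouse. Averaging a gene's probe sets could not differ, as each has 1.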

Additional observations from a re-analysis of the deposited data

Results flagged for a closer look

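In 2 of the 24 groups formed by a gene and a regimen, 1 tumour stood apart from the rest of its group, where chance sets apart about 1 group in 20. Both are obese Mouse_96, and both are the hydroxymethyltransferase genes. Shmt1 was at 11.05 there, and its gap to the next obese tumour took 0.767 of the group's range. Shmt2 was at 10.77, with a gap of 0.755 of the range. Mouse_96 was also the highest obese tumour for Phgdh, at 11.37, and for Psph, at 7.50, but the lowest for Mthfd2, at 8.85. The cause was not tested.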

How the results depend on the processing

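No alternative brought a call to any of the 6 genes, and the Psph difference between sulindac and obese tumours kept its direction, at 0.67 to 0.81 (adjusted p 0.317 to 0.985). Differences near 0 changed sign. With arrays centred on their median, Psat1 obese minus control was -0.024 and Shmt1 sulindac minus control -0.00333. Over the fits without 1 mouse each, obese minus control ran from -0.24 to 0.46 for Phgdh and -0.37 to 0.19 for Psat1. Formerly obese minus obese ran from -0.0805 to 0.19 for Mthfd2, -0.054 to 0.38 for Psat1 and -0.14 to 0.35 for Shmt1. Sulindac minus obese ran from -0.27 to 0.25 for Phgdh. Sulindac minus control ran from -0.0497 to 0.30 for Mthfd2, -0.28 to 0.42 for Phgdh, -0.12 to 0.43 for Psat1, -0.10 to 0.19 for Shmt1 and -0.0497 to 0.26 for Shmt2. Formerly obese minus control ran from -0.23 to 0.39 for Psat1, -0.082 to 0.11 for Psph and -0.34 to 0.0258 for Shmt1, and sulindac minus formerly obese from -0.14 to 0.30 for Psat1. Among correlations, Shmt1 with Mthfd2 had rho -0.0226 and ran from -0.0569 to 0.21, Psph with Mthfd2 was 0.11 with regimen means removed and ran from -0.32 to 0.0784, and Phgdh with Psph ran from -0.00712 to 0.39. The count of member pairs that passed ran from 3 to 6. Limma's calls ran from 0 to 1 for sulindac minus obese (Pole4 without obese Mouse_96, -1.20, adjusted p = 0.0220) and from 0 to 1 for formerly obese minus control (Defb10 without formerly obese Mouse_152, 1.04, adjusted p = 0.0465). Shmt2 with proliferation did not pass without control Mouse_20 (r = 0.54, adjusted p = 0.0747), nor Shmt2 with the amino acid response without formerly obese Mouse_152 (0.49, adjusted p = 0.167). Phgdh with absorptive markers did not pass after median centring (-0.57, adjusted p = 0.0502), nor without any of 4 single mice (adjusted p 0.0501 to 0.0933). No paired analysis was possible because the regimens share no mouse number. Between 5 and 6 tumours a group limit what differences can be seen.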
